A study of Mus musculus with 3 samples.

Results

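Heat shock proteins and chaperones were followed in macrophages grown from mouse bone marrow, as a set of 91 protein-coding genes among 22028 protein-coding genes and 55536 annotated genes in all. The members were chosen by gene symbol, with no use of their levels: the heat shock factors (Hsf), the HSP70 and HSP110 genes (Hspa, Hsph), HSP90, the J-domain genes (Dnaja, Dnajb, Dnajc), the small heat shock proteins (Hspb), the mitochondrial chaperonin (Hspd1, Hspe1), the cytosolic chaperonin (Cct, Tcp1) and the BAG genes. Each has at least 1 protein-coding transcript. Hspa5, the HSP70 of the endoplasmic reticulum, was kept out of the set by the selection rule and is given only where a member is compared with it.

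The cells came from C57BL/6J mice, an inbred laboratory strain, and all 3 replicates had the same treatment. They met 100 ng/ml lipid A for 12 hours, were kept free of it for 12 hours after a wash, and met 100 ng/ml lipid A again for 180 minutes before polyadenylated RNA was sequenced. Lipid A, the membrane anchor of bacterial lipopolysaccharide, is a ligand of Toll-like receptor 4; other label fields call the agent lipoprotein A and give its type as protein. The labels leave age and sex uncollected and give the 3 samples the same donor record, so the spread between them may be technical. Untreated cells and cells exposed once were not analysed here, and none of the levels can be read as a response to the exposure.

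Molecular chaperones bind proteins that are not yet folded or have lost their fold. HSP70 grips short exposed stretches, J-domain proteins hand clients to it and drive its ATP cycle, and HSP110 and BAG proteins make it let go. HSP90 takes over clients such as kinases and receptors at a later stage, chaperonins enclose a protein in a barrel, and small heat shock proteins hold unfolded proteins until the ATP-driven chaperones act. Many of these genes are driven by HSF1, which binds repeats of the bases GAA and TTC. In macrophages the endoplasmic reticulum form of HSP90, Hsp90b1, is known for folding Toll-like receptors.

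Total counts were 23418690, 36863611 and 37728915 in replicates 1, 2 and 3, so replicate 1 was the shallowest. All 10 macrophage markers examined were present at 1 TPM (a level scaled to transcript length and to the library) or more in all 3 replicates, with summed levels of 16778 to 19290 TPM. Of 6 neutrophil markers 2 were, with summed levels of 12.0, 98.5 and 10.8 TPM; Ly6g, which defines that cell type, had 0 counts in every replicate. Markers of the other 8 cell types examined summed to 3.33 TPM at most.

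Of the 91 members, 67 (73.6%) stood at 1 TPM or more in all 3 replicates, against 44.3% of protein-coding genes. The median level of all 91 members on the log2(TPM + 1) scale was 3.93 ± 0.05 (SD, n = 3), against 0.41 over all protein-coding genes. Over the members at a mean of 1 TPM or more it was 4.68. Over the 9749 protein-coding genes at 1 TPM or more in all 3 replicates it was 4.24. The members' TPM summed to 6346, 6025 and 6346 in the 3 replicates, and Hspa8 alone made up 26.1% of the sum. Mean levels were 100 TPM or more in 20 members, 10 to 100 TPM in 36, 1 to 10 TPM in 11 and below 1 TPM in 24. Of the members that passed, Hsf4 and Dnajc27 stood nearest the limit, at means of 1.58 and 1.56 TPM. Just outside it, Dnajb13 reached 1 TPM in replicate 3 alone and Hspa1l in replicate 1 alone.

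**Figure D1:**
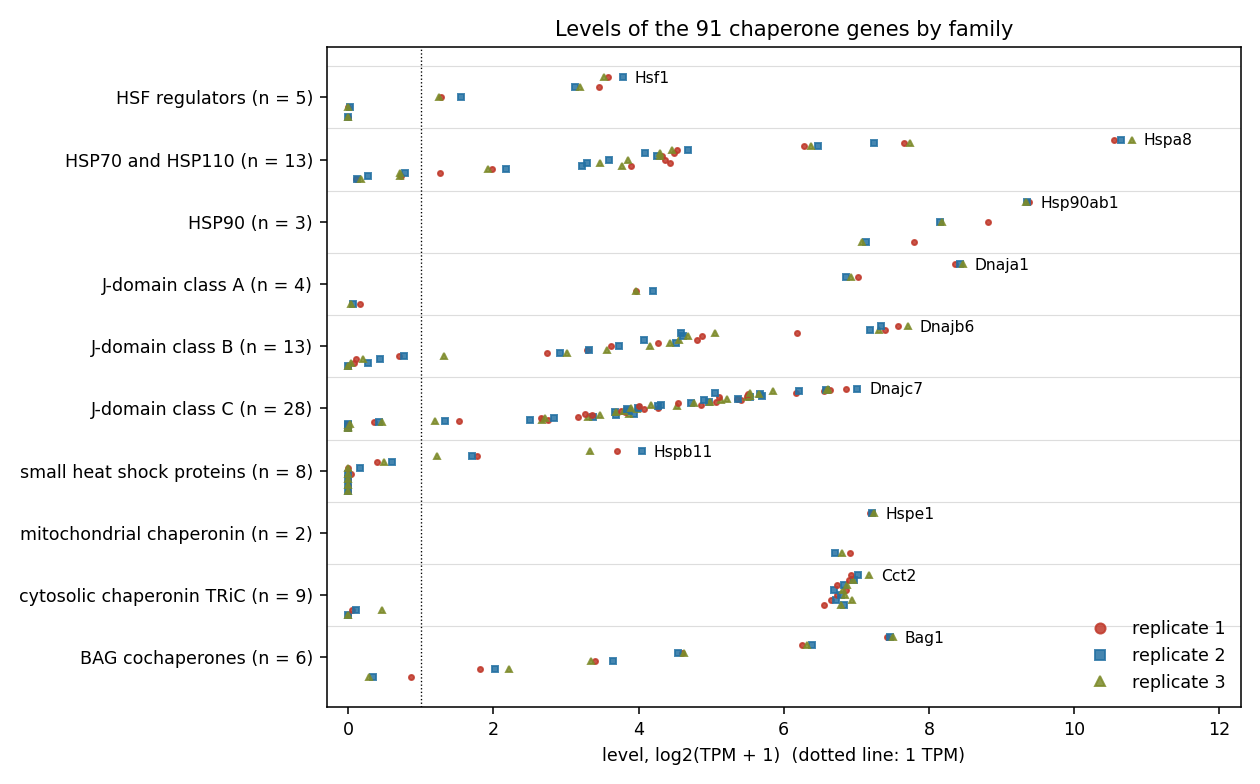
Level of each of the 91 genes in each replicate, as log2(TPM + 1), 1 row of points per gene within its family; the dotted line marks 1 TPM and the highest gene of each family is named. Hspa8 lies farthest to the right, the chaperonin subunits form a tight cluster, and 6 of 8 small heat shock genes lie left of the line in all 3 replicates.

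The spread between replicates was small for most members, as for most genes tested. A quasi-likelihood test in edgeR asked whether a gene varied more between the replicates than genes of like abundance. The trend it used was fitted to the same 3 replicates, and so few replicates give it little power. Dnajb9, with a 3.11-fold range, had an adjusted p of 0.818 in edgeR. A count of 0 passing therefore does not show that the spread was small. Of 11992 genes tested 0% passed, and 0 of the 70 members tested passed, with 4 members at an unadjusted p under 0.05 against 5.23% of all genes tested. limma on log2(TPM + 1) also called 0 members and 0 genes in all, with 3 members at an unadjusted p under 0.05 against 5.08% of genes tested. The other 21 members did not reach the count filter. Of the 70 members, 54 (77.1%) stayed within 1.5-fold over the 3 replicates, against 72.3% of all genes tested. In all, 5 (7.14%) spanned more than 2-fold, against 11.1%.

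Of the heat shock factors, the regulators of the family, 3 of 5 were present. Hsf1, the factor that drives the response to heat, stood at 10.9, 12.8 and 10.4 TPM in replicates 1, 2 and 3. Hsf2, which can pair with HSF1, stood at 9.98, 7.70 and 8.15 TPM. Hsf1 was above Hsf2 in all 3 replicates, by 0.41 ± 0.30 on the log2 scale. The margin in replicate 1 was small, 0.13, against 0.73 and 0.36 in the other two. An exact sign-flip test (two-sided) gave p = 0.25, the smallest that 3 replicates allow, and that limit holds for every ratio below. Hsf4, known from the lens, was at 1.42, 1.94 and 1.38 TPM. Hsf3 had 1 count in a single replicate and Hsf5 had 0 counts.

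HSF1 binds several 5-base units in a row, each with GAA or TTC, in alternating orientation. Promoter windows from RefSeq (GRCm38.p6; 250 bases before to 50 after a start) were matched by symbol for 73 members and searched on both strands for these letters. Members without a window were not searched. Among them were Hspa8 and Hsp90ab1, the members with the highest mean levels, so the search says nothing of these 2 genes. A run of 2 units (GAANNTTC or TTCNNGAA) was found in 21 of the 73 (28.8%), against 17.0% of the 27025 genes in the table. A run of 3 units, in which one of those strings goes straight on into the other and shares its last 3 bases, was found in 4 of the 73 (5.48%): Hspd1, Hspe1, Hsph1 and Dnajb6. The share over all genes was 0.662%, and each run of 3 also counts among the runs of 2. Those 4 members had mean levels of 18.5 to 186 TPM. The other 69 ran from 0 to 341 TPM with a median of 13.1 TPM, and 48 of them were at 1 TPM or more in all 3 replicates. A match of letters is a description and shows no binding.

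The longest run lay between RefSeq starts of the divergent genes Hspd1 and Hspe1, inside the annotated span of Hspd1. It is shown because a single stretch serves both windows. It is given on each gene's own strand with the units in capitals, at chr1:55088054-55088081; these bases lie 149 to 122 bases before one RefSeq start of Hspd1, overlapping an exon of a longer Hspd1 transcript, and 94 to 67 before that of Hspe1. For comparison follow the 3-unit stretch of Dnajb6 at chr5:29735847-29735869, on the plus strand and also overlapping an annotated exon of the gene, and the 2-unit stretch at Hspa1a, chr17:34972248-34972265 on the minus strand. The same 18 bases were found at Hspa1b, chr17:34959330-34959347, also on the minus strand.
Hspd1: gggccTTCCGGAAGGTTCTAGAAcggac
Hspe1: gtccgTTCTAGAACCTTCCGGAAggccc
Dnajb6: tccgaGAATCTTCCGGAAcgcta
Hspa1a: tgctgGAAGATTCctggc

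The HSP70 and HSP110 genes were the most abundant family, at a summed 1999 ± 145 TPM, with 10 of 13 present. Hspa8 (chr9:40800984-40810087, mm10, plus strand), the HSP70 that cells carry at all times, stood at 1498, 1606 and 1772 TPM. It was the highest member in every replicate, lowest in replicate 1. Hspa9, the mitochondrial HSP70 that pulls in imported proteins, stood at 200.4, 151 and 212 TPM, with replicate 2 the lowest. Hspa4, an HSP110-type release factor for HSP70, stood at 76.7, 87.5 and 81.8 TPM. Hsph1, the stress-inducible HSP110, was about as even at 18.9, 18 and 18.6 TPM. Hsph1 was below Hspa4 in all 3 replicates, by 2.15 ± 0.13 on the log2 scale (a log2 ratio of -2.15).

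The stress-inducible HSP70 pair was low beside Hspa8. Hspa1a (chr17:34969190-34972156, minus strand) stood at 20.6, 8.81 and 10.1 TPM, and Hspa1b (chr17:34956436-34959238, minus strand) at 19.6, 11.0 and 13.4 TPM. Both were highest in replicate 1, and the values of replicates 2 and 3 lay close together. Of the 31-base sequences of Hspa1a, 65.4% occur elsewhere, nearly all in Hspa1b, so how reads were split between them is uncertain. The sum of the pair, which does not depend on that split, was 40.2, 19.8 and 23.5 TPM. Hspa8 exceeded that sum in all 3 replicates, by 5.93 ± 0.62 on the log2 scale or 61.1-fold, and least in replicate 1, by 5.22. Hspa1a against Hspa1b gave a log2 ratio of -0.22 ± 0.26, above 0 in replicate 1 and below 0 in replicates 2 and 3 (exact sign-flip p = 0.50). The excess-variance test gave Hspa1a an unadjusted p of 0.0114 and an adjusted p of 0.820 in edgeR.

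Hspa4l, another HSP110-type gene, stood at 13.9, 8.35 and 12.6 TPM, lowest in replicate 2 (edgeR unadjusted p = 0.0220, adjusted p = 0.850). Hspa14, an HSP70 of the ribosome, averaged 22.6 ± 1.93 TPM. Hspa13, an HSP70 of the microsomal fraction, averaged 18.7 ± 2.75 TPM. The testis-type HSP70 Hspa2 averaged 3.09 ± 0.38 TPM. Hspa1l, also known from testis and 14.6% shared in sequence with Hspa1a, was at 1.41, 0.72 and 0.64 TPM. The atypical members Hspa12a and Hspa12b were under 1 TPM in every replicate.

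**Figure D2:**
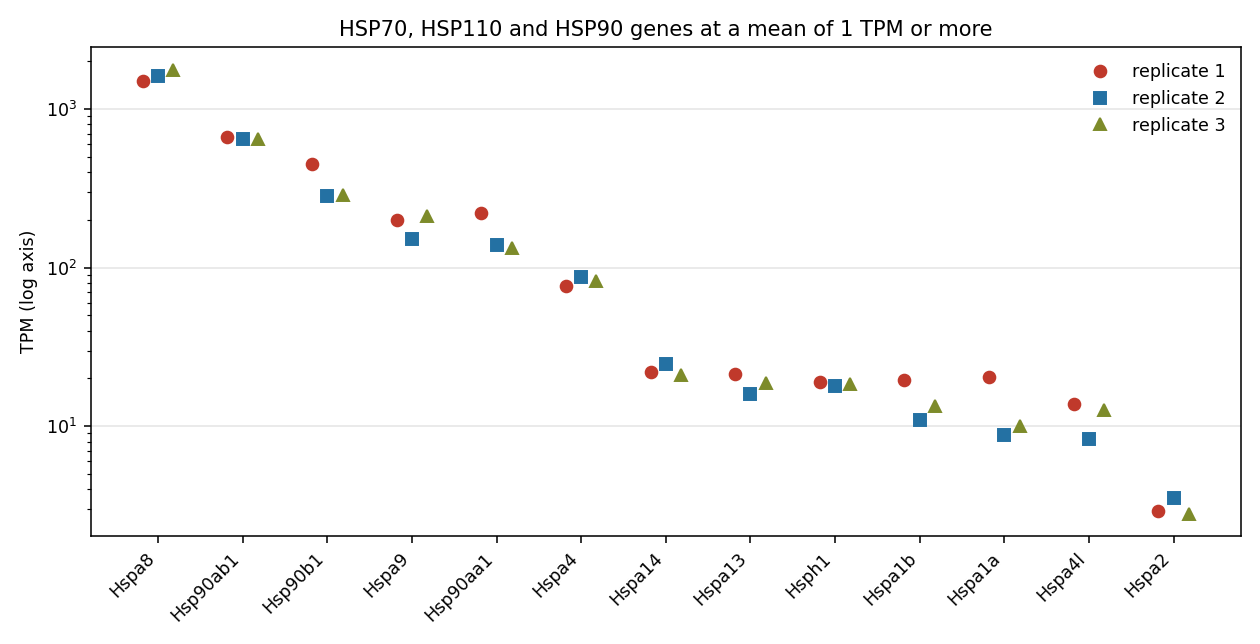
TPM on a log axis of the HSP70, HSP110 and HSP90 genes at a mean of 1 TPM or more, 1 point per replicate, in order of their mean. Hspa8 lies between 1498 and 1772 TPM; Hsp90b1, Hsp90aa1, Hspa1a and Hspa1b have replicate 1 above both others.

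All 3 HSP90 genes were abundant, with a summed level of 1159 ± 152 TPM. Hsp90ab1, the constitutive cytosolic form, was among the most even members at 663, 650.5 and 646 TPM. Hsp90aa1, the inducible cytosolic form, stood at 221, 139.8 and 133 TPM, with replicate 1 above both others. Hsp90ab1 exceeded it in all 3 replicates, by 2.03 ± 0.38 on the log2 scale or 4.07-fold, and least in replicate 1, by 1.58. For Hsp90aa1 the share found elsewhere is 51.4%, mostly in the pseudogene Gm12346, which had 48, 70 and 61 counts against 9588, 10033 and 9514 for Hsp90aa1. Hsp90b1 (chr10:86690209-86705509, minus strand), the endoplasmic reticulum form, stood at 449.8, 284 and 288 TPM, again with replicate 1 the highest.

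The J-domain genes were the largest group, and 35 of 45 were present. Of class A, Dnaja1 stood at 328, 342 and 352 TPM and Dnaja2 at 129, 115 and 121 TPM; both are cytosolic partners of Hspa8, and both varied little. Dnaja3, the mitochondrial member, stood at 14.6, 17.3 and 14.6 TPM, and Dnaja4 had 3 counts at most. The inducible class B gene Dnajb1 stood at 18.2, 21.9 and 20.6 TPM. Dnaja1 exceeded it by 4.08 ± 0.11 on the log2 scale, or 16.9-fold, in a ratio that hardly moved between replicates.

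Of class B, 9 of 13 members were present. Dnajb6, known for keeping polyglutamine proteins soluble, stood at 189, 162 and 208 TPM, with replicate 2 the lowest. Dnajb11, a partner of Hspa5 in the endoplasmic reticulum, stood at 166.5, 145 and 158 TPM. Dnajb9 (chr12:44205559-44210326, minus strand), another partner of Hspa5, stood at 71.9, 23.1 and 32.3 TPM. Replicate 1 was 3.11-fold above replicate 2, the widest range of any member at 1 TPM or more in all 3 replicates. Its excess-variance test gave an unadjusted p of 0.00430 and an adjusted p of 0.818 in edgeR. With no filter on low counts it was the 1 member of 82 called, with an adjusted p of 0.0233 in edgeR, where 0.705% of 20285 genes were called. Dnajb4, a relative of Dnajb1, stood at 26.9, 15.9 and 22.5 TPM, with replicate 2 the lowest. Dnajb12, Dnajb2, Dnajb5 and Dnajb14 averaged 25.4, 13.5, 9.49 and 6.42 TPM. The testis-type gene Dnajb13 was at 0.62, 0.71 and 1.49 TPM. Dnajb3 and Dnajb7 were under 1 TPM and Dnajb8 had 0 counts.

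Of class C, in which the J domain sits in otherwise unlike proteins, 23 of 28 were present, none at over 114 TPM on average. Dnajc7, which bridges HSP70 and HSP90, stood at 115, 128 and 96.3 TPM. Dnajc8, linked to RNA splicing, stood at 98.8, 94.8 and 95.7 TPM, nearly the same in each. Dnajc2, which acts at the ribosome, stood at 93.1, 72.7 and 56.5 TPM, highest in replicate 1 and lowest in replicate 3. Dnajc9, a histone chaperone, ran the other way at 8.55, 14.3 and 13.7 TPM, with replicate 1 the lowest. The endosomal gene Dnajc13 averaged 46.8 ± 3.76 TPM and the cysteine string protein gene Dnajc5 47.9 ± 3.13 TPM. The mitochondrial import genes Dnajc19 and Dnajc15 averaged 41.0 ± 6.51 and 31.05 ± 1.14 TPM. The class C members present and not named elsewhere ran from 1.56 TPM for Dnajc27 to 38.8 TPM for Dnajc14. Dnajc6, the auxilin of nerve cells, had 2 counts in a single replicate. Dnajc28 was under 1 TPM, and Dnajc22, Dnajc5b and Dnajc5g had 0 counts.

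Most members in a group of 8 that work inside the endoplasmic reticulum had their highest level in replicate 1. This group was drawn up after the values were seen, from textbook knowledge of location. It holds Hsp90b1, Hspa13, Dnajb9, Dnajb11, Dnajc1, Dnajc3, Dnajc10 and Dnajc25. The group is not complete: Dnajc16, also numbered among the J-domain proteins of the endoplasmic reticulum, was counted with the other members. Dnajc16 was lowest in replicate 1, at 8.01, 9.35 and 8.86 TPM. On the log2 CPM scale (counts scaled to library size, with TMM factors), 7 of these 8 were highest in replicate 1, against 35.9% of all genes tested and 22 of the 62 other members tested (35.5%). The median difference from a gene's mean over the 3 replicates was 0.32, -0.25 and -0.07 in replicates 1, 2 and 3. Over the other 62 it was -0.03, -0.02 and 0.02. The exception was Dnajc25, with -0.05, -0.03 and 0.08. In the deposited TPM of the gene tables all 8 were highest in replicate 1, Dnajc25 too at 5.76, 4.69 and 5.36 TPM, against 35.1% of genes tested. In the FASTQ-made TPM 4 of the 8 were, Hsp90b1, Dnajb9, Dnajc1 and Dnajc3, against 12.2% of genes tested. Relative to the gene tables, the FASTQ-made TPM was lower by a median log2 difference of -0.48, -0.19 and -0.03 in replicates 1, 2 and 3 over all expressed genes, and of -0.51, -0.19 and -0.04 over the members. Replicates are not groups, the group of genes was chosen for what it showed, and no test was made of it.

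Among these genes Dnajc1, a membrane J-domain protein, stood at 70.9, 32.1 and 45.5 TPM, highest in replicate 1 (edgeR unadjusted p = 0.0103, adjusted p = 0.820). Dnajc3, a lumenal cochaperone of Hspa5, stood at 27.9, 18.8 and 16.9 TPM. Dnajc10, a reductase that helps degrade misfolded proteins, averaged 34.9 ± 6.34 TPM. Hspa5 itself, no member, stood at 1367, 499 and 664 TPM, also highest in replicate 1. Hsp90b1 was below Hspa5 in all 3 replicates, with log2 ratios of -1.60, -0.81 and -1.20. Dnajb12 and Dnajb14, whose J domain faces the cytosol from the same membrane, differed from their means by 0.17 and -0.19 in replicate 1, so they went opposite ways.

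A list of 16 genes of endoplasmic reticulum folding and its stress response, Hspa5 included and none a member, was present throughout. On the log2 CPM scale 13 of these were highest in replicate 1 (81.2%), against 35.9% of all genes tested. The median differences were 0.44, -0.32 and -0.07. In edgeR 0 passed the adjusted test, with 8 at an unadjusted p under 0.05, against 5.23% of all genes tested. In the FASTQ-made TPM Calr, Canx, Pdia3, Pdia6, P4hb, Ppib and Xbp1 were not highest in replicate 1. The other genes of the list were, against 12.2% of genes tested. Hspa5 and Calr, a calcium-binding lectin chaperone, were the most abundant; Calr stood at 802.5, 597.5 and 805 TPM with replicates 1 and 3 about equal. Herpud1 and Creld2 had the largest differences in replicate 1 and are named for that, after their values were seen. Herpud1, a part of the degradation machinery, stood at 55.8, 18.2 and 12.6 TPM, and Creld2 at 60.4, 22.6 and 22.7 TPM. Replicate 1 had the lowest total count and replicate 2 the highest neutrophil marker sum, and the part of either in these differences was not tested. In bulk RNA, fewer cells of a type and less RNA per cell cannot be told apart.

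**Figure D3:**
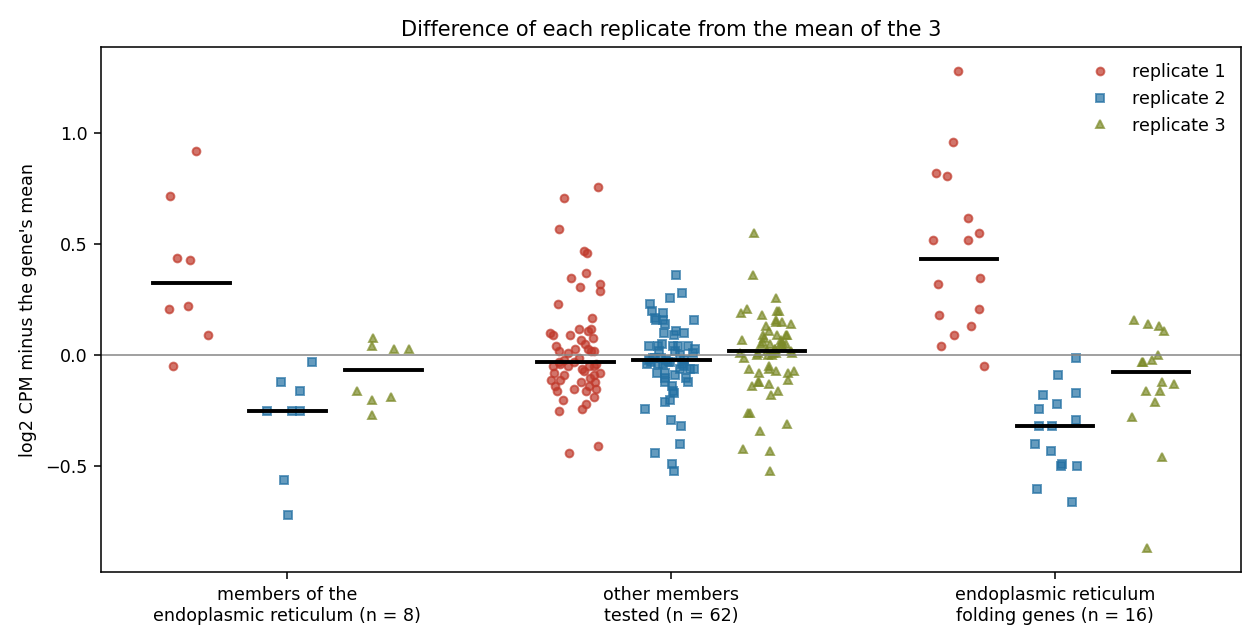
Difference of each replicate from the gene's mean on the log2 CPM scale, 1 point per gene and replicate. The groups are the 8 listed members of the endoplasmic reticulum, the 62 other members tested and the 16 genes of endoplasmic reticulum folding. Black bars are medians. Replicate 1 has its median at 0.32 in the left group and at -0.03 in the middle group.

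Some genes of the endoplasmic reticulum carry a stress element, which reads CCAAT, any 9 bases, then CCACG, on either strand. This search was added after the levels were seen. The element was found in 2 of 73 members with a promoter window (2.74%), Dnajc3 and Hsp90b1, and in 0.137% of all genes in the table. Both are among the 7 endoplasmic reticulum members with a window, and Hspa5 has one too. Dnajb9 and Dnajc1, whose differences in replicate 1 were larger (0.92 and 0.72, against 0.43 for Dnajc3 and 0.44 for Hsp90b1), were not among the genes with a match. The matches are shown, with the whole element in capitals, to give the letters found. They lie at chr14:118937822-118937850 on the plus strand for Dnajc3, at chr10:86705633-86705661 and chr10:86705528-86705556 on the minus strand for Hsp90b1, and at chr2:34772020-34772048 on the plus strand for Hspa5, where they overlap an annotated exon.
Dnajc3: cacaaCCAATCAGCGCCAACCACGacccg
Hsp90b1, far: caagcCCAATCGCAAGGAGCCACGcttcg
Hsp90b1, near: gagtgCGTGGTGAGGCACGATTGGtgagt
Hspa5: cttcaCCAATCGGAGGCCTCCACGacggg
The near element of Hsp90b1 reads CCAAT to CCACG on the other strand.

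The cytosolic chaperonin TRiC folds actin and tubulin in a ring of 8 different subunits. In the alignment-made TPM these subunits stood at nearly equal levels. Of the 8 subunit genes 7 are members; Cct6a, annotated as a processed transcript in GENCODE M21, is not. Within replicates 1, 2 and 3 the highest subunit was 1.30, 1.26 and 1.32 times the lowest, Cct6a included. Cct2 was the highest in every replicate, at 120.5, 129 and 144 TPM, and Cct4 had the lowest mean, at 92.5, 112.5 and 109 TPM. Their log2 ratio was 0.33 ± 0.11. From Cct2 down to Cct4, each subunit overlapped its neighbour in that order in its replicate values. Cct8 stood at 118, 124.5 and 123 TPM and Tcp1 at 105, 113 and 116 TPM. Cct6a stood at 102, 111 and 134 TPM. The testis-type copy Cct6b had 1, 3 and 15 counts, and Cct8l1 had 0.

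The mitochondrial chaperonin was as even. Hspe1 (chr1:55088132-55091307, plus strand), the lid of the barrel, stood at 145, 148 and 150.0 TPM. Hspd1 (chr1:55077835-55088243, minus strand), the barrel itself, stood at 119, 103 and 111 TPM. Hspd1 was below Hspe1 in all 3 replicates, with a log2 ratio of -0.41 ± 0.12. The 2 genes overlap on opposite strands at their starts, where reads cannot be assigned without strand. For Hspd1 50.1% of its 31-base sequences occur elsewhere, mostly in the pseudogene Hspd1-ps3, which had 32, 35 and 35 counts against 3616, 5050 and 5468.

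**Figure D4:**
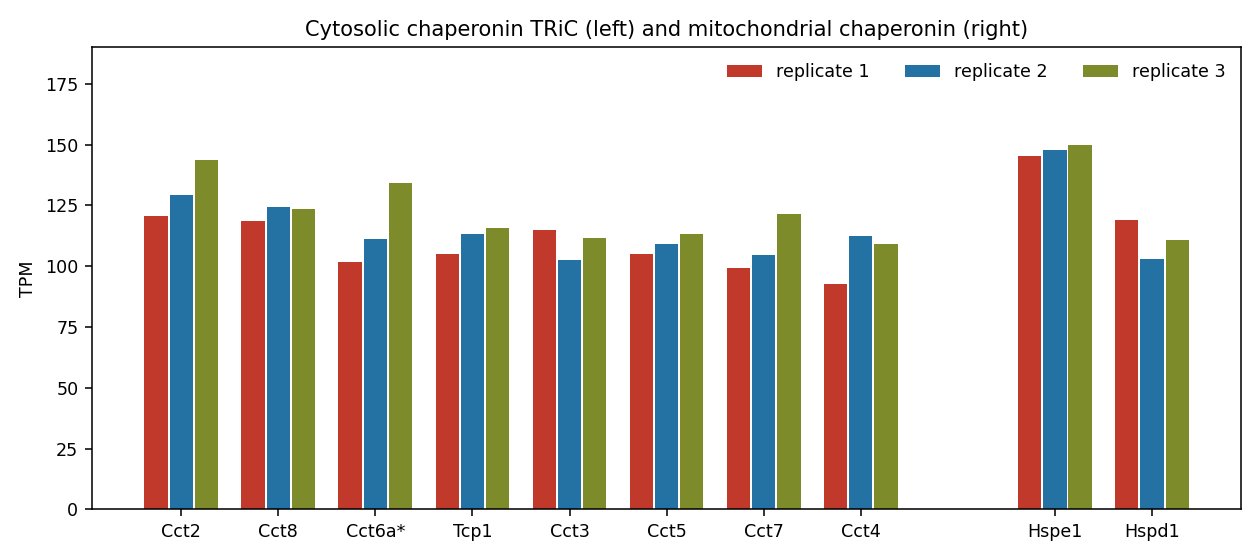
TPM of the 8 TRiC subunit genes, in order of their mean, and of the 2 genes of the mitochondrial chaperonin, 1 bar per replicate; the asterisk marks Cct6a, which is no member. Every bar on the left lies between 92.5 and 144 TPM.

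The small heat shock proteins were nearly absent. Their levels summed to 14.6 ± 3.76 TPM, or 0.235% of the members' TPM, and 2 of 8 were present. Hspb11, which is a part of the transport machinery of cilia, stood at 12.0, 15.4 and 9.07 TPM and made up most of that. Hspb6 stood at 2.41, 2.25 and 1.34 TPM, lowest in replicate 3. Hspb9, a testis-type gene, was at 0.32, 0.52 and 0.41 TPM. Hspb1, the best-known stress-inducible small heat shock protein, had 0, 2 and 0 counts. Hspb7 had 1 count, and Hspb2, Hspb3 and Hspb8 had 0. A gene with 0 counts could still be present at 3 counts, which is 0.128, 0.0815 and 0.0796 CPM in replicates 1, 2 and 3.

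Of the BAG cochaperones, which release clients from HSP70, 5 of 6 were present. Bag1 stood at 170.0, 176 and 180.4 TPM. Bag6, which guards proteins on their way to membranes, stood at 75.1, 82.4 and 78.5 TPM. Bag3, a heat-inducible member that steers clients to autophagy, stood at 23.3, 22.2 and 23.7 TPM. All 3 were even between replicates, and Bag3 lay below Bag1 with a log2 ratio of -2.93 ± 0.06. Bag5 averaged 10.1 ± 1.30 TPM and Bag4 3.07 ± 0.57 TPM. Bag2 was at 0.82, 0.27 and 0.22 TPM.

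Cochaperones outside the set were present at levels in the members' range. All 17 HSP90 cochaperones listed stood at 1 TPM or more in all 3 replicates, led by Ahsa1, which speeds the HSP90 cycle, at 169, 171 and 163.5 TPM. Cdc37, which brings kinases to HSP90, followed at 149.8, 142 and 152 TPM. Of 10 HSP70 cochaperones 9 were present. St13, a scaffold of HSP70 and HSP90, stood at 106, 97.9 and 108 TPM and Stub1, a ubiquitin ligase, at 44.8, 61.2 and 54.9 TPM. All 6 prefoldin subunits, which pass clients to TRiC, were present, with Pfdn5 at 158, 193 and 185 TPM and Pfdn1 at 47.6, 55.0 and 53.2 TPM. The mitochondrial HSP90, Trap1, stood at 26.1, 32.04 and 32.2 TPM among 6 mitochondrial proteases and chaperones that were all present, after Htra2 at 50.2, 36.9 and 41.6 TPM. Of 12 further stress genes 10 were present, led by Sqstm1 at 1914, 958 and 1772 TPM and Ubb at 1852, 1213 and 1448 TPM. In this list 8 of the 10 tested were highest in replicate 1 on the log2 CPM scale, against 35.9% of all genes tested. The median differences were 0.24, -0.28 and 0.00. In the FASTQ-made TPM Gadd45a alone of these 10 was highest in replicate 1. No gene of these lists passed the adjusted test.

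The leading transcripts of the 67 present members were mostly coding ones. The transcript with the largest share of a gene's TPM was protein coding in 64, and it held 90% or more in 30. The exceptions were Dnajc15 and Dnajc5, led by transcripts annotated for nonsense-mediated decay, and Hspb6, led by a processed transcript. For Dnajc15 that transcript, Dnajc15-201, held 73.9%, 78.6% and 83.2% of the gene's TPM in the 3 replicates. Dnajc5-204 held 38.4%, 40.4% and 44.7%. In 14 of the 67 members, transcripts not annotated as protein coding together held 20% or more of the gene's TPM. Among them was Dnajc7 at 50.8%, though its leading transcript is a coding one. The tables made straight from FASTQ files gave the same leading transcript in 61 of the 67. Hsp90aa1 was among those that differed, with Hsp90aa1-202 at 84.4% ± 7.48 in the alignment-made tables and Hsp90aa1-201 at 52.8% in the other.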

How the data were processed

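Polyadenylated RNA of 3 replicates of a single group was analysed from tables the authors deposited, made with mouse assembly mm10 and annotation M21 per the deposited file lists. The programs behind them, and whether counting used strand, were not given in the sources used here. Per the file headers, the alignment-made gene and transcript tables hold expected counts, TPM and the posterior standard deviation of each count, a score used here only as a check. The deposited FASTQ-made transcript tables hold estimated counts and TPM, from 6 sequence files in replicate 1 and 4 in the others. Replicate numbers come from the labels. PhiX, 0.178%, 0.107% and 0.115% of counts, was left out of library sizes.

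Levels are deposited TPM, as mean ± SD. For edgeR 4.0.16 (R 4.3.3) counts were made whole by rounding, filtered by filterByExpr (11992 genes kept) and scaled by TMM. An intercept-only quasi-likelihood fit gave each gene's dispersion over the trended prior, tested one-sided by F and adjusted by Benjamini-Hochberg over all genes at 0.05. It was tried on simulated counts with each gene's dispersion set on the trend, without the spread around the trend that these data have. That trial does not show how many variable genes the test would find here. Ratios are log2 TPM ratios within a sample. Alternatives used limma 3.58.1, DESeq2 1.42.0 size factors, other thresholds and pseudocounts, the FASTQ-made tables and leaving out each replicate. Sequence sharing is the part of all 31-base words of a gene that another gene's GENCODE M21 transcripts also hold. Of the members, 15 share 10% or more, 40 overlap an antisense gene and 24 a gene on their own strand, so their levels are uncertain to that extent. Intervals and floors cover counting error only.

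The members and the lists were chosen with earlier results of these data known. The text may name every member. It gives values by replicate for the 3 highest of each family, the genes in ratios and the 10 members with the largest SD of log2(TPM + 1). Of each related list it gives the 2 highest genes, and besides Herpud1 and Creld2, chosen after their values were seen. Protein sequences were not used here.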

Additional observations from a re-analysis of the deposited data

Results flagged for a closer look

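Counts at genes outside the set that share sequence with a member were above the 3 counts that a count of 0 allows in all 3 replicates. Gm15542, a pseudogene like Dnaja1, had 295, 296 and 260 counts, against 9020, 16527 and 16711 for Dnaja1. Gm15459, like Hspa8, had 80, 142 and 105. Gm12346, like Hsp90aa1, had 48, 70 and 61, and Hspd1-ps3, like Hspd1, had 32, 35 and 35. Gm2541, like Dnajb6, had 30, 18 and 103. AC117239.2, a protein-coding gene like Hspe1, had 16, 10 and 6.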

How the results depend on the processing

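Of 135 alternative values for 32 results, 116 moved by less than the spread between replicates or, for counts, by no more than 1.5-fold. Only the ratios could be scored as reversed, and 0 of them were. The members' median difference from their gene means in replicate 2 changed sign with total counts only, from -0.03 to 0.01, within a spread of 0.14. Without a filter on low counts 1 of 82 members passed the excess-variance test, Dnajb9, where 0 had, and over all genes 143 of 20285 passed, where 0 had; leaving out a replicate gave 0 in each case. Leaving out a replicate moved none of the other results past its spread. For the summed levels and the ratios that outcome was fixed in advance. A mean of 3 values cannot move by its SD when 1 value is left out. These values are among the 116, so that count overstates how stable the results are. The median level was 3.66 in the FASTQ-made tables, 3.84 with a pseudocount of 0.1 and 4.68 over members at a mean of 1 TPM or more. In the FASTQ-made tables the summed level was 5197 TPM and all 10 family sums were lower; the median log2 difference was -0.23 over the members and -0.22 over all expressed genes. The log2 ratios there were -2.39 for Hsph1 to Hspa4, 4.30 for Dnaja1 to Dnajb1, -3.0 for Bag3 to Bag1 and 0.18 for Cct2 to Cct4. The cause was not tested. Cct2 and Cct4 had the highest and lowest means of the TRiC subunits in the alignment-made TPM only. In the FASTQ-made TPM Cct6a was the highest subunit in every replicate, and Cct7 or Cct3 the lowest. The subunits lay farther apart there than in the alignment-made TPM in every replicate, so 0.18 is not their full range. In alternatives added after seeing the data, the endoplasmic reticulum members highest in replicate 1 numbered 7 of 8 under each scaling and filter of the counts and in the FASTQ-made counts, 8 in the TPM of the gene tables and 4 in the FASTQ-made TPM. No paired analysis was possible because there is a single group. Depth limits what can be said of the 22 members under 1 TPM.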
